A study of Homo sapiens with 5 samples.

Results

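Keratins and vimentin are intermediate filament proteins of the cytoplasm, and their transcripts were examined in 3 human renal cell carcinoma lines. The genes KRT7, KRT8, KRT18, KRT19, KRT80, KRT81 and VIM were taken as members, and every probe set that the platform table assigned to exactly these symbols was used. The table named 11 probe sets for 6 of the 7 members, of 19775 genes with a probe set of their own. KRT81 was not analysed here. RNA of the lines was hybridised to 5 Affymetrix arrays of 54675 probe sets. LM2, labelled lung metastatic generation 2, had 2 biological replicates, LM1, labelled lung metastatic generation 1, had 1 array, and SN12C, the parental line labelled non-metastatic, had 2 biological replicates. The labels give no treatment, and how LM1 and LM2 were derived, or whether each is a clone, is not stated in them. They do not say that replicates were separate cultures, so p-values reflect only how far these arrays differ, which may be technical. The number of arrays limits the precision of every value.

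Intermediate filaments are built from rod-shaped proteins that pair into coiled coils and assemble into tough cables. A keratin filament needs an acidic type I keratin (KRT18 and KRT19 among the members) together with a basic type II keratin (KRT7, KRT8, KRT80 and KRT81). The pair KRT8 and KRT18 is the base set of simple epithelia, including kidney tubules, and KRT7 and KRT19 are added in ductal epithelia. KRT81 is known as a hair keratin. VIM encodes vimentin, a type III protein that forms filaments by itself in mesenchymal cells. Renal cell carcinoma is known for carrying keratins and vimentin side by side.

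Values are log2 signals, so that a difference of 1 unit is a doubling. A gene was tested through its brightest probe set where at least 2 arrays reached 6.03 log2 units, the 40th percentile of all values, and 15024 genes were tested, among them all 6 measured members. Of the 11 member probe sets, 8 reached this filter. Signals of different probe sets are not comparable as levels, so only differences of the same probe set between arrays are compared.

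The arrays differed in 3' to 5' signal and in spread. For beta-actin the 3' probe set minus the 5' probe set gave 3.43 log2 units on the LM1 array, 0.07 and 0.19 on the LM2 arrays and 0.47 and 0.23 on the SN12C arrays. The same measure for GAPDH was 2.09 in LM1 and at most 0.14 elsewhere. Signals on SN12C replicate 1 spread less (SD 2.11) than those on any other array (SD 2.22 to 2.25). PAX8, a transcription factor of the renal lineage, read between 9.19 and 9.82 on all arrays. Of the other renal markers listed, PAX2, LHX1 and CDH6 passed the filter, reading at most 7.41, CDH16 and EMX2 did not, and CA9 was not analysed here.

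For VIM and KRT8 the sequence around an annotated start of the gene was at hand (RefSeq, GRCh38.p14). It runs from 250 bases before to 50 bases after that start. These regions are shown for the mesenchymal and a simple epithelial filament gene, neither of which separated LM2 from SN12C. The VIM region is chr10:17227991-17228290 on the plus strand and the KRT8 region chr12:52926420-52926719 on the minus strand. Capitals mark the GC box, GGGCGG or its reverse complement CCGCCC, and each line runs 5′ to 3′.
VIM: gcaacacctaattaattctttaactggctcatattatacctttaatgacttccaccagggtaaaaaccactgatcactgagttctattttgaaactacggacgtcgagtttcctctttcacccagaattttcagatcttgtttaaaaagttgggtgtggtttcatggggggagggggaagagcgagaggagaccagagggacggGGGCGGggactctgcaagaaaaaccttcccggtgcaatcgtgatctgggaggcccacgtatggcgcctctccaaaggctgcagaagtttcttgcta
KRT8: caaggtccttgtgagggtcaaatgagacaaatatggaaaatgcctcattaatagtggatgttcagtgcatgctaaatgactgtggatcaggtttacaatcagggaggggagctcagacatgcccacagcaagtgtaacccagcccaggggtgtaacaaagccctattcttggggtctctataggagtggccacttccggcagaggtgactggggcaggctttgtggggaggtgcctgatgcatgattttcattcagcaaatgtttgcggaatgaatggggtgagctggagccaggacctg
The VIM region held 1 GC box and 10 CpG dinucleotides, and the KRT8 region 0 and 2. Among 35116 start regions of this length, 45.0% held a GC box on either strand and the median number of CpG dinucleotides was 14. Neither region held a TATA box (TATAAA or its reverse complement TTTATA, present in 11.5% of the regions) or the E-box CAGGTG or its reverse complement CACCTG (20.6%). These matches describe letters in the window and were not related to the signals. Whether the lines use these starts was not tested.

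KRT19, a type I keratin of ductal and simple epithelia, was the member that stood apart between the lines. Its probe set 201650_at read 11.76 and 11.74 log2 units on the LM2 arrays, against 8.92 and 9.54 on the SN12C arrays. Both LM2 arrays lay above both SN12C arrays, at 11.75 ± 0.02 in LM2 and 9.23 ± 0.44 in SN12C (SD, n = 2 each). The difference was 2.52 ± 0.25 log2 units (SE), or 5.74-fold, with a 95% interval from 1.76 to 3.28. It did not pass the threshold over all genes (limma, adjusted p = 0.225, unadjusted p = 0.00138). No gene did: 0% of the 15024 genes were called, and KRT19 shared the lowest adjusted p with the other genes at that value, 146 in all. Before adjustment, 1737 genes had a limma p under 0.05. KRT19 ranked 14 from the top by difference, where 1.72% of all genes were at least 1 log2 unit higher in LM2. With 2 arrays on each side, the smallest p of an exact two-sided permutation test is 0.333.

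In LM1 the same KRT19 probe set read 12.01 log2 units, against 8.92 and 9.54 on the SN12C arrays. The LM1 array lay above both SN12C arrays, by 3.09 and 2.47. Against the SN12C mean the difference was 2.78 ± 0.31 log2 units (SE), or 6.87-fold (limma, adjusted p = 0.0964, which was the lowest of any gene in this comparison and was shared by 355 genes). Again 0% of genes were called by limma, 3325 had an unadjusted p under 0.05, and 6.27% of genes were at least 1 log2 unit higher in LM1. LM1 has no replicate, so its spread is assumed to be that of the other lines, and both comparisons use the same SN12C arrays. The part of the large 3' to 5' differences of beta-actin and GAPDH on the LM1 array was not tested for any LM1 result. Between the metastatic generations the difference, LM2 minus LM1, was -0.26 ± 0.31 (limma, adjusted p = 0.819), with a 95% interval from -1.19 to 0.67. The KRT19 signal thus did not differ detectably between LM2 and LM1, within an interval wider than 1 log2 unit.

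The size of the KRT19 difference depended on the probe set. A second probe set, 228491_at, read 6.10 and 6.24 log2 units on the LM2 arrays and 6.34 on the LM1 array, against 6.10 on both SN12C arrays. These values lie close to the filter value of 6.03, and the groups did not separate between LM2 and SN12C. Its difference was 0.07 ± 0.09 in LM2 and 0.24 ± 0.11 in LM1 against SN12C (SE; limma over all probe sets, adjusted p = 0.731 and 0.306). With both probe sets averaged, the KRT19 difference was 1.30 in LM2 and 1.51 in LM1. Without SN12C replicate 2 the difference passed in LM2 (2.83, limma adjusted p = 0.0317), with 3824 genes called, and without either SN12C replicate it passed in LM1 (2.47 and 3.09, limma adjusted p = 0.0409 and 0.0248). The fits without an SN12C array take their spread from the LM2 pair alone, whose median gap was 0.07 log2 units, where that of the SN12C pair was 0.28.

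Markers of other cell types were read beside KRT19. The mean signal of 5 lung epithelial markers was 6.72 and 6.69 on the LM2 arrays and 6.67 on the LM1 array. On the SN12C arrays it was 7.05 and 6.68, so that the LM2 means lay between both. SFTPB read 9.04 on SN12C replicate 1 and at most 7.82 on the other arrays. Of the 3 tested lung epithelial genes, 1 was higher and 2 were lower in LM2. The higher one, NKX2-1, read 7.18 and 6.98 on the LM2 arrays and 6.72 on the LM1 array, against 6.78 and 6.89 on the SN12C arrays. The mean of 5 fibroblast markers was 7.87 and 7.88 on the LM2 arrays and 7.77 on the LM1 array, against 6.99 and 7.48 on the SN12C arrays. Of its 4 tested genes 2 were higher and 2 lower in LM2, with a median difference of 0.12. COL3A1, a fibrillar collagen, read 10.94 and 11.11 on the LM2 arrays and 10.04 on the LM1 array, against 6.98 and 8.98 on the SN12C arrays. The LM2 differences were 3.04 for COL3A1, 0.24 for PDGFRB, -0.01 for COL1A1 and -0.06 for DCN, and only COL3A1 had LM2 arrays apart from SN12C. LUM, a matrix proteoglycan, read at most 4.37 on any array. The part of the lung epithelial or the fibroblast list in the KRT19 result was not tested.

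**Figure D1:**
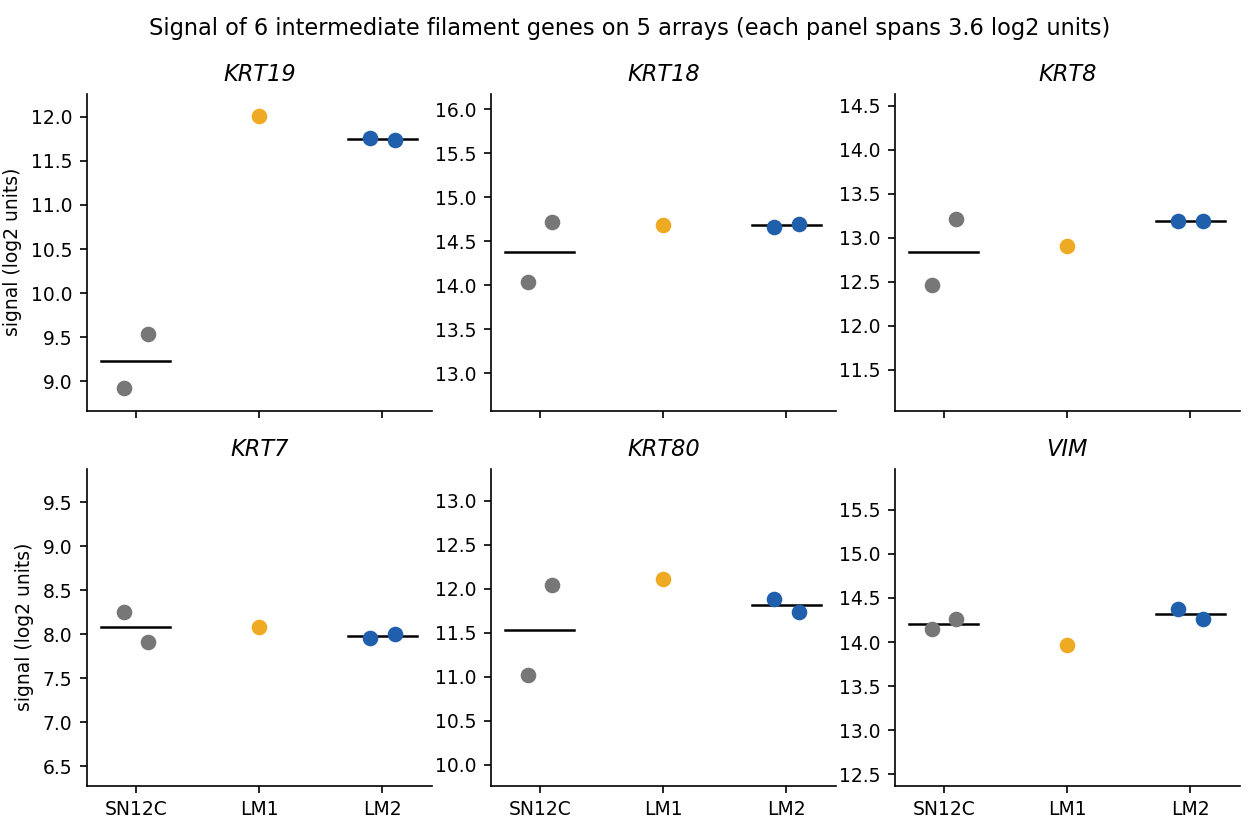
Log2 signal (vertical axis) of 6 filament genes by line (horizontal axis), with 1 point per array and a bar at the mean of lines with 2 arrays. The KRT19 points of LM1 and LM2, from 11.74 to 12.01, lie above those of SN12C at 8.92 and 9.54, and for the keratins other than KRT7 SN12C replicate 1 (left point) is the lowest array.

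KRT18, the type I partner of the simple epithelial pair, was read by a single probe set. That probe set, 201596_x_at, read 14.67 and 14.70 log2 units on the LM2 arrays and 14.69 on the LM1 array, against 14.04 and 14.72 on the SN12C arrays. Only SN12C replicate 1 lay apart, and the LM2 arrays fell between both SN12C arrays. The difference in LM2 was 0.30 ± 0.27 (SE; limma, adjusted p = 0.65), with a 95% interval from -0.52 to 1.13, and in LM1 0.31 ± 0.33 (limma, adjusted p = 0.678).

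KRT8, the type II partner of KRT18, also had SN12C replicate 1 as its lowest array. Its probe set 209008_x_at read 13.19 and 13.20 log2 units on the LM2 arrays and 12.91 on the LM1 array, against 12.46 and 13.21 on the SN12C arrays. The LM2 arrays again lay between both SN12C arrays, with a difference of 0.35 ± 0.30 (SE; limma, adjusted p = 0.643) and a 95% interval from -0.55 to 1.26. In LM1 the difference was 0.07 ± 0.37 (limma, adjusted p = 0.947). Both probe sets end in _x_at, a type that can bind related transcripts, and KRT8 and KRT18 have many pseudogenes, so their signals are uncertain as to gene copy.

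KRT7, a type II keratin of ductal epithelia, was read by 4 probe sets that did not move together. The brightest, 1558393_at, read 7.96 and 8.00 log2 units on the LM2 arrays and 8.08 on the LM1 array, against 8.25 and 7.91 on the SN12C arrays. Its difference was -0.10 ± 0.15 in LM2 (SE; limma, adjusted p = 0.76), and the groups overlapped. The second, 209016_s_at, read 6.92 and 6.98 on the LM2 arrays and 7.48 on the LM1 array, against 6.40 and 7.23 on the SN12C arrays. On this probe set SN12C replicate 1 was the lowest array, on the brighter one the highest. The remaining probe sets, 214031_s_at and 1558394_s_at, lay below the filter at 5.42 to 5.56 and 4.24 to 4.36. With all KRT7 probe sets averaged, the difference in LM2 was 0.00.

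KRT80, a type II keratin that is found in many epithelia, was read by a single probe set, 231849_at. It read 11.89 and 11.74 log2 units on the LM2 arrays and 12.11 on the LM1 array, against 11.02 and 12.05 on the SN12C arrays. The LM1 array lay above all others. The SN12C arrays stood 1.03 log2 units apart and enclosed the LM2 arrays. The difference was 0.28 ± 0.41 in LM2 (SE; limma, adjusted p = 0.753), with a 95% interval from -0.96 to 1.52, and 0.58 ± 0.50 in LM1 (limma, adjusted p = 0.603).

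VIM, the mesenchymal filament gene, had the most narrowly bounded LM2 difference of the 6. Its probe set 201426_s_at read 14.37 and 14.26 log2 units on the LM2 arrays, against 14.15 and 14.26 on the SN12C arrays. SN12C replicate 2 and LM2 replicate 2 had the same deposited value, so the groups touched. The difference was 0.11 ± 0.09 in LM2 (SE; limma, adjusted p = 0.64), with a 95% interval from -0.17 to 0.39. The LM1 array read 13.97, the lowest of the 5, at -0.24 ± 0.11 from SN12C (limma, adjusted p = 0.344). LM2 stood 0.35 ± 0.11 above LM1 (limma, adjusted p = 0.29, unadjusted p = 0.0481). The LM1 array also had the large 3' to 5' differences of beta-actin and GAPDH, whose part in this and the other LM1 results was not tested. The other VIM probe set, 1555938_x_at, read between 4.99 and 5.21 on all arrays, below the filter.

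**Figure D2:**
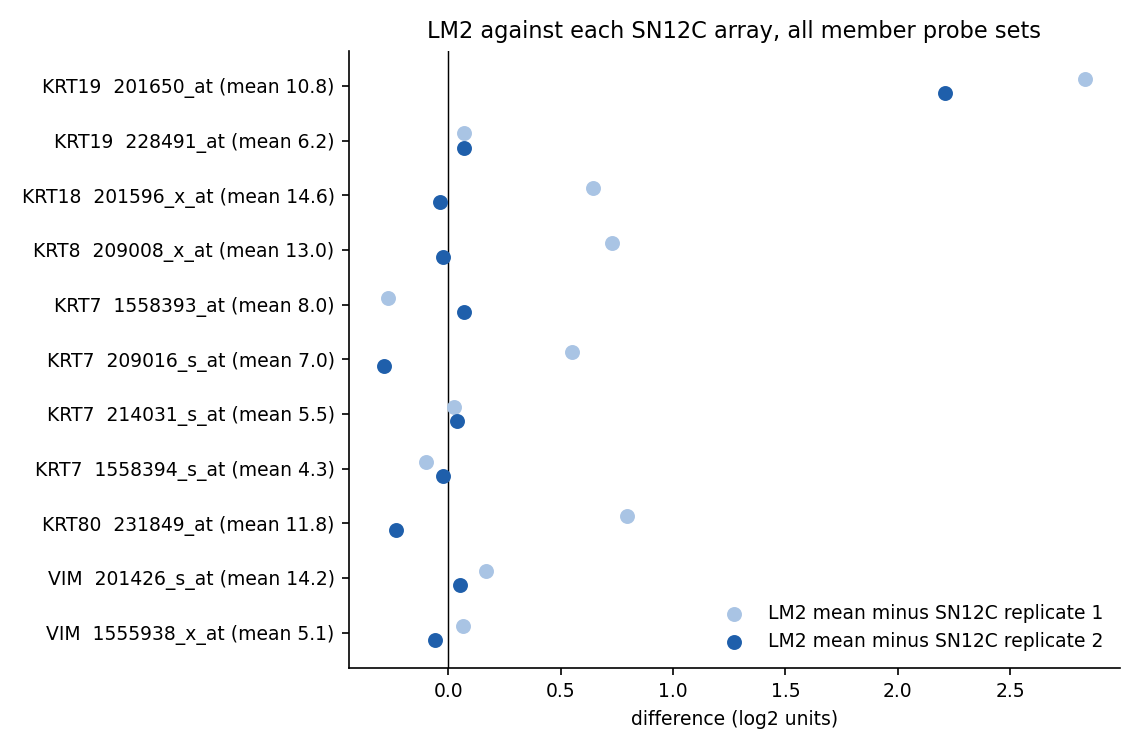
Mean of the LM2 arrays minus SN12C replicate 1 (light) and minus SN12C replicate 2 (dark), in log2 units on the horizontal axis, for each of the 11 member probe sets, named with its gene and its mean signal over the 5 arrays. KRT19 201650_at lies at 2.83 and 2.21, while KRT18, KRT8 and KRT80 lie at 0.64 to 0.80 against replicate 1 and at -0.23 to -0.02 against replicate 2.

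Counted over the 6 tested members, 5 were higher and 1 lower in LM2 by any amount, where 55.5% of all genes were higher, with a median difference of 0.29 log2 units, against 0.03 over all genes. The arrays of LM2 and SN12C did not overlap for 1 member, KRT19, where 39.4% of all genes did not overlap. In LM1, 4 members were higher and 2 lower, where 60.2% of all genes were higher, with a median of 0.19, against 0.09 over all genes. The LM1 array lay outside both SN12C arrays for 3 members, KRT19 and KRT80 above and VIM below, where 66% of all genes did. In LM2 against LM1, 2 members were higher and 4 lower, where 34.9% of all genes were higher, with a median of -0.05, against -0.07 over all genes, and limma called 0% of genes, with 2555 at an unadjusted p under 0.05. With 6 members, these counts are too small to set the members apart from all genes.

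The SN12C replicates differed from each other in the keratins by more than the LM2 replicates did. Replicate 2 exceeded replicate 1 by 1.03 log2 units for KRT80, 0.75 for KRT8, 0.68 for KRT18 and 0.62 for KRT19. For VIM the gap was 0.12. For KRT7 it was -0.34 on the brightest probe set and 0.83 on 209016_s_at. Over all genes the median of this signed gap was 0.09, and over the 1503 brightest genes 0.23. Without regard to sign, the median gap between the SN12C arrays was 0.28. With negative gaps counted as smaller, 96.9% of genes lay below KRT80, 90.9% below KRT8, 88.6% below KRT18 and 86.3% below KRT19. These shares do not measure the distance between the replicates regardless of direction. After quantile normalization of all 5 arrays the gap was 0.70 for KRT80, 0.55 for KRT8, 0.70 for KRT18 and 0.28 for KRT19, and the median over all genes -0.04. The LM2 replicates stood at most 0.15 apart for any of the 6 genes. Against SN12C replicate 2 alone, LM2 was at -0.02 for KRT8, -0.03 for KRT18, -0.23 for KRT80 and 2.21 for KRT19. Without SN12C replicate 2 the LM2 differences of KRT8 (0.73) and KRT18 (0.64) passed (limma, adjusted p = 0.0317 and 0.0364), and so did the LM1 differences of KRT8 (0.44) and KRT18 (0.65; limma, adjusted p = 0.0265 and 0.0339). Without SN12C replicate 1 the LM1 difference of KRT8 passed on the other side (-0.31; limma, adjusted p = 0.0469). The sign of the LM2 differences of KRT8, KRT18 and KRT80 therefore rested on SN12C replicate 1, and that of KRT19 held against each SN12C array.

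Ratios within an array do not depend on a constant log2 shift of that array, but they can depend on the spread of its signals. KRT19 relative to KRT18, centred on its mean over the 5 arrays, stood at 0.87 and 0.81 log2 units on the LM2 arrays and at 1.09 on the LM1 array, against -1.35 and -1.41 on the SN12C arrays. Relative to KRT18 the LM2 and SN12C groups of KRT19 lay 2.22 apart, and the SN12C arrays lay close together as deposited. After quantile normalization the SN12C arrays lay less close in this ratio, since the gap between them was 0.28 for KRT19 and 0.70 for KRT18. KRT8 relative to KRT18 stood at 0.09 and 0.06 on the LM2 arrays and at -0.21 on the LM1 array, against -0.01 and 0.06 on the SN12C arrays. KRT8 kept close to KRT18 over the LM2 and SN12C arrays, and the whole span over the 5 arrays was 0.30. The span was 0.44 for KRT80, 0.83 for VIM, 1.02 for KRT7 and 2.50 for KRT19. Such a ratio shows unequal change of 2 signals and not which of them changed.

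**Figure D3:**
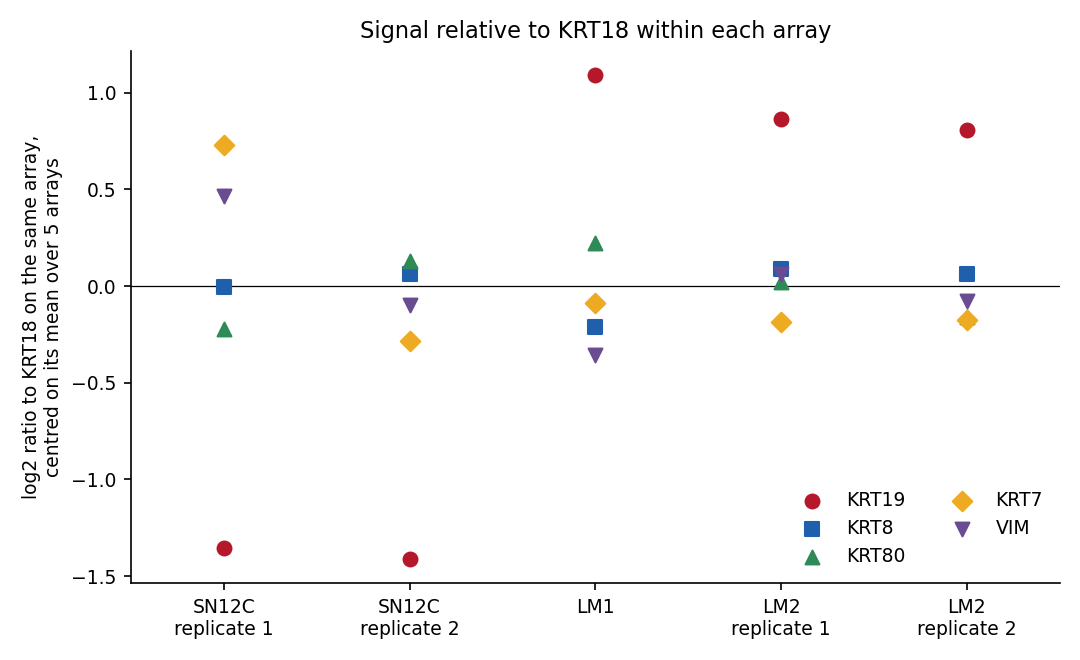
Log2 signal of each gene minus that of KRT18 on the same array, centred on its mean over the 5 arrays (vertical axis), for each array (horizontal axis). KRT19 lies between 0.81 and 1.09 on the LM1 and LM2 arrays, against -1.35 and -1.41 on the SN12C arrays, while KRT8 stays within 0.30 log2 units over all 5 arrays.

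The members' places in the genome were compared with those of their neighbours among protein-coding genes, by gene order alone. KRT8 and KRT18 are adjacent on chromosome 12, although KRT18 is a type I gene, and KRT7 and KRT80 are adjacent in the same type II cluster. KRT19 lies on chromosome 17 in the type I cluster, with KRT15 and KRT9 on either side. KRT15 read 6.45 and 6.56 log2 units on the LM2 arrays, against 6.40 and 6.48 on the SN12C arrays, a difference of 0.06 (limma, adjusted p = 0.746). KRT9 read 7.41 on both LM2 arrays, against 7.66 and 7.35 on the SN12C arrays, a difference of -0.09 (limma, adjusted p = 0.76). Neither neighbour separated LM2 from SN12C as KRT19 did. VIM lies on chromosome 10.

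Other filament genes and their partners were read as lists, and limma called 0 genes of any list. Of 28 type I keratins, 14 were tested, including KRT18 and KRT19, with 6 higher and 7 lower in LM2 and 1 with equal values on all arrays, KRT36. Their median difference was -0.01, against 0.03 over all genes. KRT33A, a hair keratin, was the only other type I keratin at least 1 log2 unit apart without overlap. It read 8.31 and 8.61 on the LM2 arrays, against 9.98 and 9.27 on the SN12C arrays, a difference of -1.16 ± 0.31 (SE; limma, adjusted p = 0.373), on a probe set of the _x_at type. Of all genes, 1.7% were that far higher and 1.23% that far lower in LM2 without overlap. Of 26 type II keratins, 17 were tested, 6 higher and 11 lower in LM2, with a median of -0.08, and 0 were that far apart. KRT5, the basal epidermal partner, read 7.08 and 7.14 on the LM2 arrays, against 7.59 and 6.80 on the SN12C arrays.

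Of 15 other filament genes, which include the nuclear lamins and neuronal filaments, 12 were tested, 7 higher and 5 lower in LM2, with a median of 0.02 and 0 that far apart. LMNA and SYNM were named after their values were seen. LMNA, the gene of the A-type lamins, had a difference from SN12C of 0.26 in LM2 and 0.80 in LM1 (limma, adjusted p = 0.631 and 0.163). SYNM, encoding the vimentin partner synemin, read 10.07 and 10.02 on the LM2 arrays and 10.75 on the LM1 array, against 9.16 and 10.15 on the SN12C arrays. The SN12C arrays of SYNM enclosed those of LM2, and its difference was 0.39 in LM2 and 1.10 in LM1 (limma, adjusted p = 0.671 and 0.308). Among 18 desmosome and plakin genes, some of whose products tie keratin filaments to the membrane, 12 were tested, with a median of 0.00. Of these, 5 were higher and 6 lower in LM2, and 1, EVPL, had equal values on the LM2 and SN12C arrays. DSG2, a desmosomal cadherin, read 8.71 and 8.77 on the LM2 arrays and 9.09 on the LM1 array, against 10.02 and 9.91 on the SN12C arrays. All arrays of LM2 and LM1 lay below those of SN12C, with a difference of -1.23 ± 0.09 in LM2 (SE; limma, adjusted p = 0.225) and -0.88 ± 0.10 in LM1 (limma, adjusted p = 0.0971). DSP, encoding desmoplakin, the main keratin anchor of desmosomes, read at most 4.86 on any array and lay below the filter.

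Of 10 kinases and adaptor proteins that act on filaments, 9 were tested, 8 higher and 1 lower in LM2, where 55.5% of all genes were higher, with a median of 0.23, against 0.03 over all genes. The lower one was PRKCE, a protein kinase C known to phosphorylate vimentin, which read 8.59 and 8.86 on the LM2 arrays and 8.42 on the LM1 array, against 10.43 and 10.07 on the SN12C arrays. Its difference was -1.52 ± 0.19 in LM2 (SE; limma, adjusted p = 0.244) and -1.83 ± 0.23 in LM1 (limma, adjusted p = 0.0982). Of 14 epithelial and mesenchymal regulators 9 were tested, 6 higher and 3 lower in LM2, with a median of 0.07. ZEB2, a repressor of epithelial genes, read 6.27 and 6.23 on the LM2 arrays and 7.61 on the LM1 array, against 7.70 and 6.99 on the SN12C arrays, with a difference in LM2 of -1.09 ± 0.29 (SE; limma, adjusted p = 0.368). Among the higher genes, named after their values were seen, TWIST1, a transcription factor of mesenchymal cells, read 10.24 and 10.13 on the LM2 arrays and 10.96 on the LM1 array, against 8.87 and 9.51 on the SN12C arrays. Its difference was 0.99 ± 0.26 in LM2 (SE; limma, adjusted p = 0.368) and 1.77 ± 0.32 in LM1 (limma, adjusted p = 0.122). CDH2, encoding N-cadherin, read 10.77 and 10.84 on the LM2 arrays and 11.73 on the LM1 array, against 10.20 and 10.27 on the SN12C arrays. Its difference was 0.57 ± 0.08 in LM2 (SE; limma, adjusted p = 0.252) and 1.49 ± 0.10 in LM1 (limma, adjusted p = 0.0964). For TWIST1 and CDH2 all LM2 and LM1 arrays lay above those of SN12C, while for ZEB2 only the LM2 arrays lay apart, below SN12C. CDH1 and EPCAM, both epithelial surface proteins, read at most 5.11 and 4.96 on any array and lay below the filter.

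**Figure D4:**
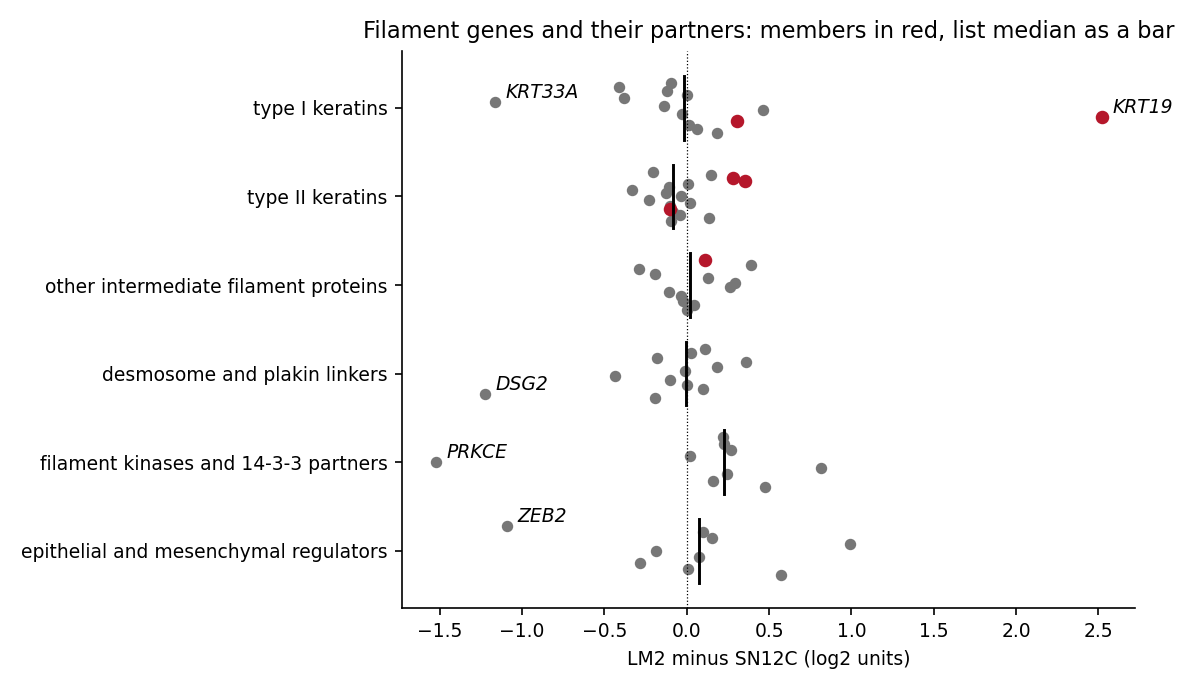
Difference of LM2 minus SN12C in log2 units (horizontal axis) for the tested genes of 6 lists (rows), with members in red and a bar at each list's median. KRT19 at 2.52 lies apart from its list, whose median is -0.01, and KRT33A, DSG2, PRKCE and ZEB2 lie between -1.52 and -1.09.

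The genes whose profiles over the 5 arrays came closest to those of KRT19 and KRT80, the members whose tested probe set spanned at least 1 log2 unit, were found by the root mean square distance of centred values. For KRT19 they were TMEM47 at 0.13 log2 units, L1CAM at 0.18 and SHISA9 at 0.22. TMEM47, a membrane protein gene whose SN12C values lay below the filter, read 6.72 and 7.07 on the LM2 arrays and 7.13 on the LM1 array, against 3.95 and 4.57 on the SN12C arrays. L1CAM, a neural cell adhesion molecule, read 9.80 and 9.89 on the LM2 arrays and 10.59 on the LM1 array, against 7.12 and 7.76 on the SN12C arrays. For KRT80 the closest were NR2F6, a nuclear receptor, at 0.04, FZD5, a WNT receptor, at 0.05 and UBAC1 at 0.06. KRT80 and these 3 genes were lowest on SN12C replicate 1. With 5 arrays, closeness describes these arrays only.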

How the data were processed

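RNA of 3 renal cell carcinoma lines was measured on 5 arrays. The values deposited by the authors are log2 signals. The tools RMA and Partek are named, per the submitters' processing notes; their versions are not given in the sources used here. RMA usually includes quantile normalization, but the deposited arrays still differed in spread (SD 2.11 to 2.25), and the values were used as deposited. Many deposited values are equal between arrays, 714 tested genes in both SN12C arrays and 2129 in both LM2 arrays, which shrinks the estimated spread.

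A platform table gave 41097 probe sets 1 gene and 1801 several, and no probe set with several genes was used. The 62 control probe sets were left out of the tests. The model, 1 mean per line over 5 arrays, was fitted in R 4.3.3 with lmFit and eBayes of limma 3.58.1, has 2 residual degrees of freedom, and was adjusted by Benjamini-Hochberg over all 15024 genes at 0.05, and again over all probe sets. It was tested on simulated data. Genes were named by a rule: all members, up to 4 genes per list that passed or stood at least 1 log2 unit apart without overlap, and the 3 closest profiles. Other genes named were chosen after their values were seen. Members, lists, rule and alternatives were chosen with earlier results of these data known. Alternatives covered the filter, probe set rule, normalization, eBayes options, which lines were fitted, a replicate block and the omission of each replicate. Start regions are from RefSeq. Figures were drawn with matplotlib 3.10.9.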

Additional observations from a re-analysis of the deposited data

How the results depend on the processing

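With 5 arrays and 2 residual degrees of freedom, differences under about 1 log2 unit were not resolved for most members. No gene and no member was called in any comparison under the other filters, probe set rules, normalizations and eBayes options. With only the lines compared, 1273 genes and 0 members were called in LM2 against LM1. Leaving out 1 replicate gave between 0 and 3824 genes and between 0 and 3 members in LM2 against SN12C, between 0 and 4823 genes and 0 and 3 members in LM1 against SN12C, and between 0 and 1273 genes in LM2 against LM1. The highest counts came without SN12C replicate 2 for both comparisons with SN12C, where only the LM2 pair gives a spread, and without SN12C replicate 1 LM1 against SN12C had 1979 genes and 2 members.

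Of 231 recomputed member differences, 212 kept direction and side of the threshold, 7 newly passed, all without an SN12C replicate, and 12 turned direction, of which 1 passed, KRT8 in LM1 without SN12C replicate 1. KRT19 kept its direction in all of them, between 1.30 and 2.83 in LM2 and between 1.51 and 3.09 in LM1 against SN12C. With probe sets averaged, KRT7 turned to 0.0016 in LM2 and 0.18 in LM1, and with median centring to 0.047 in LM1. With quantile normalization KRT18 in LM2 against LM1 turned to 0.027. With 1 replicate left out, LM2 against SN12C ranged from -0.27 to 0.069 for KRT7, -0.023 to 0.73 for KRT8, -0.035 to 0.64 for KRT18 and -0.23 to 0.80 for KRT80. LM1 against SN12C ranged from -0.17 to 0.17 for KRT7, -0.31 to 0.44 for KRT8 and -0.032 to 0.65 for KRT18, and LM2 against LM1 from -0.020 to 0.015 for KRT18. The cause was not tested. KRT8, KRT18 and VIM have no probe set of another type, so they have no value without _x_at and _s_at probe sets.

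The labels do not say whether same-numbered replicates of LM2 and SN12C belong together. Deviations of same-numbered arrays correlated at r = 0.09 across genes, which does not decide this. With the replicate block 0 genes were called in LM2 against SN12C, and KRT19 was at 2.52 (limma adjusted p = 0.458).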
